A study of Mus musculus with 38 samples.

Results

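Messenger RNA of Myc and of 37 genes that build ribosomes was followed in primary mouse embryonic fibroblasts exposed to TNF, LPS or Poly(I:C). The 38 genes are given by name, as a transcription factor and a process, and the rule uses no measured value. All 38 were found among the 45706 gene identifiers of each deposited count table, and all 38 passed the filter on low counts in both tables, with at least 43 reads in every TNF library and 28 in every LPS and Poly(I:C) library. The cells were of the C57BL/6 strain and either wild-type (WT) or homozygous for a knock-in allele of RelA, an NF-kB subunit, that the labels name RelA-TA-KI. All of them had been kept overnight in low serum (0.5% bovine calf serum), so the untreated cells were starved cells too. TNF (10 ng/ml) was given for 0.5, 1, 3 or 8 h, and with the untreated cells this made 10 groups of 2 libraries each. LPS (100 ng/ml) and Poly(I:C) (20 ug/ml) were given for the same times, with 1 library for each genotype and condition and 1 untreated library per genotype of their own, 18 libraries in all. The labels do not say whether replicates came from separate embryos or cultures, so p-values measure only the spread between these libraries. In the WT TNF libraries this spread includes a difference in sex. In RelA-TA-KI its source is not known and may be in part technical.

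Myc encodes a transcription factor that pairs with Max and binds the E-box, and genes of ribosome biogenesis are among its best known targets. Ribosomes are assembled in the nucleolus: RNA polymerase I transcribes the precursor of ribosomal RNA, small nucleolar ribonucleoproteins (snoRNPs) guide its modification, and large sets of assembly factors fold, cut and export the small (40S) and large (60S) subunits. In starved fibroblasts Myc is a classical early response gene of growth factors, and the assembly genes respond later.

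Each library held 6715022 to 9590932 counted reads in the TNF table and 7021799 to 9431334 in the other. Fibroblast markers were high in every library, with summed levels of 31028 CPM (read counts relative to library size, scaled with edgeR's TMM factors) or more. Macrophage markers were present in every library as well, at 985 to 3878 CPM summed over 13 genes in the TNF table and 3368 to 5662 in the other. Libraries also differed in sex. In the TNF table, WT replicate 2 had Ddx3y, a gene of the Y chromosome, at 131.1 CPM or more (here scaled to the library total), whereas the other TNF libraries had at most 0.673 and carried Xist, the RNA of the inactive X chromosome, at 331.8 or more. In the second table every WT library carried both RNAs, and every RelA-TA-KI library had Ddx3y with Xist at 1.73 or less. In bulk RNA, more cells of a type and more RNA per cell cannot be told apart.

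RefSeq promoter windows (GRCm38.p6, from 250 bases before to 50 bases after the start site) were at hand for 31 of the 38 genes. Myc itself, Bop1, Fbl, Npm1, Rrp12, Rrs1 and Tcof1 had no window, so their promoters were not searched. The E-box CACGTG, which reads the same on both strands, lay in the windows of 7 of the 31 genes (22.6%). Among the 10592 genes of the TNF test with such a window, 11.5% held it, and among all 27025 genes with a window 8.09%. The 8 matches are shown because they are the letters that Myc and Max are known to bind. Each is written 5′ to 3′ on the strand of the gene, with the E-box in capitals and up to 12 bases on either side. Positions are those of the first base of the E-box, counted from the start site as 1.
Rrn3, position -215, plus strand, chr16:13780472-13780501: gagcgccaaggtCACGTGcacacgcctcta
Rrn3, position -48, plus strand, chr16:13780639-13780668: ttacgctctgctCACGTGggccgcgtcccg
Nop2, position -60, plus strand, chr6:125131811-125131840: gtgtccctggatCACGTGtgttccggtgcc
Pes1, position 3, plus strand, chr11:3963965-3963994: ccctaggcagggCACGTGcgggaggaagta
Wdr43, position 18, plus strand, chr17:71616220-71616249: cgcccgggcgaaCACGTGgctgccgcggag
Utp20, position 38, minus strand, chr10:88826765-88826789: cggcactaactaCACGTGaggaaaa
Pno1, position 38, minus strand, chr11:17211540-17211564: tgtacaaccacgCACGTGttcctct
Mybbp1a, position 41, plus strand, chr11:72441355-72441376: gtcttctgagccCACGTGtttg
Only Rrn3 had a pair of E-boxes in its window, and 5 of the 8 matches lay downstream of the start site, at positions 3 to 41. The kappa B consensus, the site NF-kB is known to bind, was searched on both strands and lay in the windows of 0 of the 31 genes, against 6.6% of the genes tested. A match is a description of letters and not a bound site, and a window without one says only that the letters are not there.

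Per kilobase of exon, the median of the 38 genes was 15.3 CPM in untreated WT cells, against 6.15 over all 13843 genes tested. Npm1, which encodes the nucleolar chaperone nucleophosmin, was the highest at 109.5 CPM per kb (SD 1.3, n = 2), followed by Ncl, the gene of nucleolin, at 72.6 (SD 4.57). Myc stood at 17.1 (SD 1.4), and Rrp1b was the lowest at 2.52 (SD 0.238). No gene of the 38 passed the test between the untreated genotypes (edgeR quasi-likelihood test with Benjamini-Hochberg adjustment over all genes, threshold 0.05), where 0.00722% of all genes tested did. DESeq2 called 0 as well, and 7 of the 38 had an unadjusted p below 0.05 with edgeR. The share of all genes below that limit is not given here. Over the 6 alternative settings that kept all libraries the number called ran from 0 to 5, with 5 when the replicate number was a block. The sign was uneven all the same. The log2 difference was negative in RelA-TA-KI in 31 of 38 genes, with a median of -0.15, while 50.7% of all genes had a positive one, and in 22 genes both RelA-TA-KI libraries lay below both WT libraries, as did 22.5% of all genes tested. The largest of these differences was that of Bysl, a 40S assembly factor, with 48.0 and 36.6 CPM in WT and 31.2 and 27.8 in RelA-TA-KI.

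Myc rose with TNF at every time in both genotypes, and late in the time course it rose further in RelA-TA-KI cells. The gene (ENSMUSG00000022346.12) lies on chromosome 15 at 61985341 to 61990374, plus strand, in mm10. In the WT replicates Myc stood at 50.0 and 44.6 CPM before treatment, 94.3 and 98.5 at 0.5 h, 131 and 125.9 at 1 h, 76.5 and 74.7 at 3 h, and 93.5 and 92.2 at 8 h. It thus went up to 1 h, came down by 3 h and was again higher at 8 h, and no treated library overlapped the untreated ones. In the RelA-TA-KI replicates Myc had 42.4 and 32.7 CPM before treatment, 87.8 and 87.1 at 0.5 h, 121.9 and 109.9 at 1 h, 91.9 and 100.6 at 3 h, and 170.2 and 186.6 at 8 h. The highest libraries were those of 8 h, and the libraries of the first 3 times lay below those of WT. The log2 fold change against untreated cells was 1.03 (SE 0.10, adjusted p = 2.2e-05) at 0.5 h, 1.45 (SE 0.10) at 1 h, 0.68 (SE 0.10) at 3 h and 0.98 (SE 0.10) at 8 h in WT. In RelA-TA-KI it was 1.22, 1.63, 1.36 and 2.25 at these times (SE 0.10 each), a 4.76-fold rise at 8 h (adjusted p = 3.6e-09, edgeR). At 0.5 and 1 h the difference between the responses did not pass the test (0.19 and 0.18, SE 0.14 each, adjusted p = 1 for both). At 8 h the difference of responses was 1.27 (SE 0.14, adjusted p = 2e-04) with the larger rise in RelA-TA-KI, and this call held in all 26 alternative settings, in which the value ran from 1.09 to 1.48. Within replicate 1 alone, where both genotypes have the female pattern, it was 1.1, and within replicate 2 it was 1.46. At 3 h the difference of 0.68 (SE 0.14, adjusted p = 0.038) was the only call among the 38 genes, against 0.202% of all genes with a larger and 0.73% with a smaller response, and it was lost in 19 of the 20 fits that left out 1 library.

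**Figure D1:**
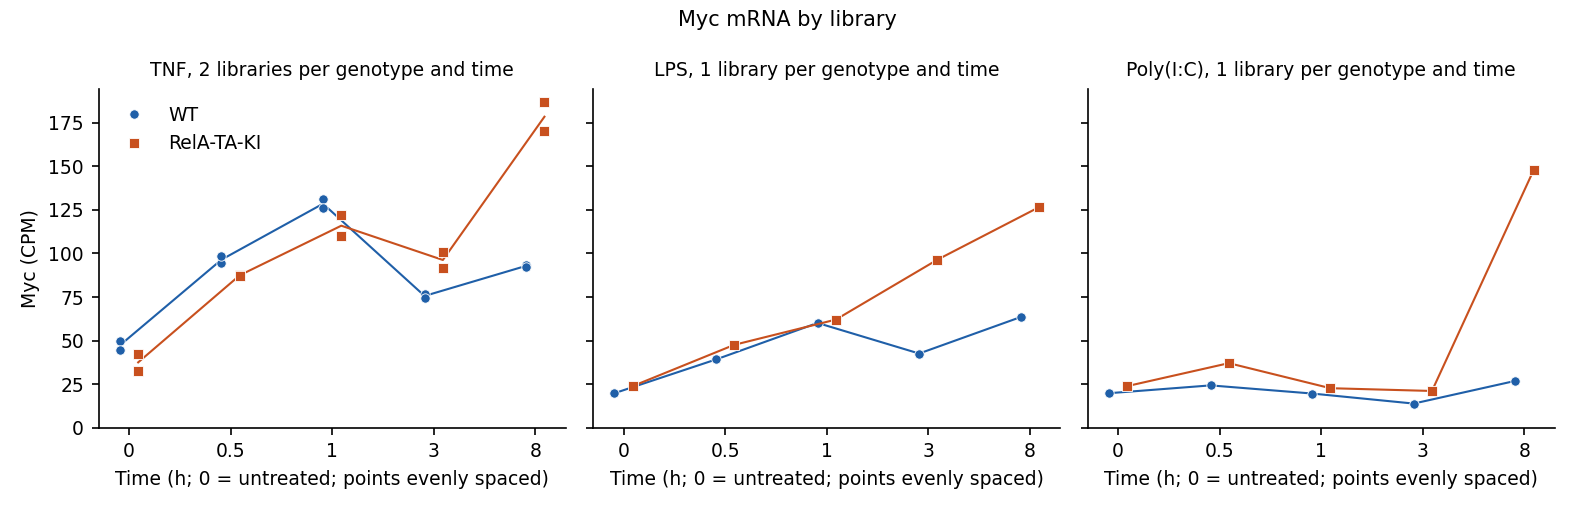
Myc mRNA in CPM (vertical axis) against time in h (horizontal axis, evenly spaced points, 0 is untreated) for TNF, LPS and Poly(I:C), with 1 point per library, circles for WT, squares for RelA-TA-KI and lines through group means. The 8 h RelA-TA-KI libraries, at 170.2 and 186.6 CPM with TNF, 126.5 with LPS and 147.6 with Poly(I:C), lie above the WT libraries of the same time in each panel.

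Most of the other 37 genes were called later than Myc, and the number called early depended on the fit. At 0.5 and 1 h of TNF, Myc was the only gene of the 38 called in either genotype in the fit without a replicate block, and it was called higher each time. With the replicate number as a block the calls were 1 in WT and 5 in RelA-TA-KI at 0.5 h, and 3 and 8 at 1 h. The shares of all genes tested called higher were 0.91% in WT and 0.831% in RelA-TA-KI at 0.5 h, and 2.57% and 2% at 1 h. The sign was already uneven at these times: 30 genes in WT and 33 in RelA-TA-KI had a positive log2 fold change at 0.5 h, with medians of 0.08 and 0.14, and 34 in each genotype did at 1 h, with medians of 0.10 and 0.12. Both treated libraries lay above both untreated ones at 0.5 h in 5 genes of WT and 24 of RelA-TA-KI, against 17.7% and 24.9% of all genes, and at 1 h in 10 and 19, against 21% and 25.7%. At 3 h, 24 of the 38 were called higher in WT and 26 in RelA-TA-KI, and none lower. Of all genes 9.32% and 10.9% were called higher, and 6.36% and 8.08% lower. The median log2 fold change of the 38 was 0.42 in WT and 0.43 in RelA-TA-KI, while that of all genes was -0.01 in both. In 31 genes of each genotype both 3 h libraries lay above both untreated ones, against 26% of all genes in WT and 32.3% in RelA-TA-KI. The number of calls at 3 h depended on single libraries: it was 12 in WT without untreated replicate 2 and 15 without 3 h replicate 1, and 11 in RelA-TA-KI without untreated replicate 2 and 12 without 3 h replicate 1. It was 9 in WT when the fit held only the groups compared. The largest rise of the WT cells at 3 h was that of Rrs1, a 60S assembly factor, with 0.91 (SE 0.11, adjusted p = 6.4e-05), and in RelA-TA-KI cells it was that of Myc. Between the genotypes at 3 h, RelA-TA-KI against WT, 0 of the 38 were called with edgeR and 0 with DESeq2, against 3.19% of all genes. With edgeR 5 of the 38 had an unadjusted p below 0.05, as had at least 3.19% of all genes. Over the 6 alternative settings that kept all libraries the number called ran from 0 to 2, with 2 under the replicate block. The sign leaned as in untreated cells: the difference was negative in 33 of the 38 genes at 3 h (median -0.13), as in 32 at 0.5 h and 35 at 1 h, while 52.1%, 50.8% and 50.4% of all genes had a positive one at these times.

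**Figure D2:**
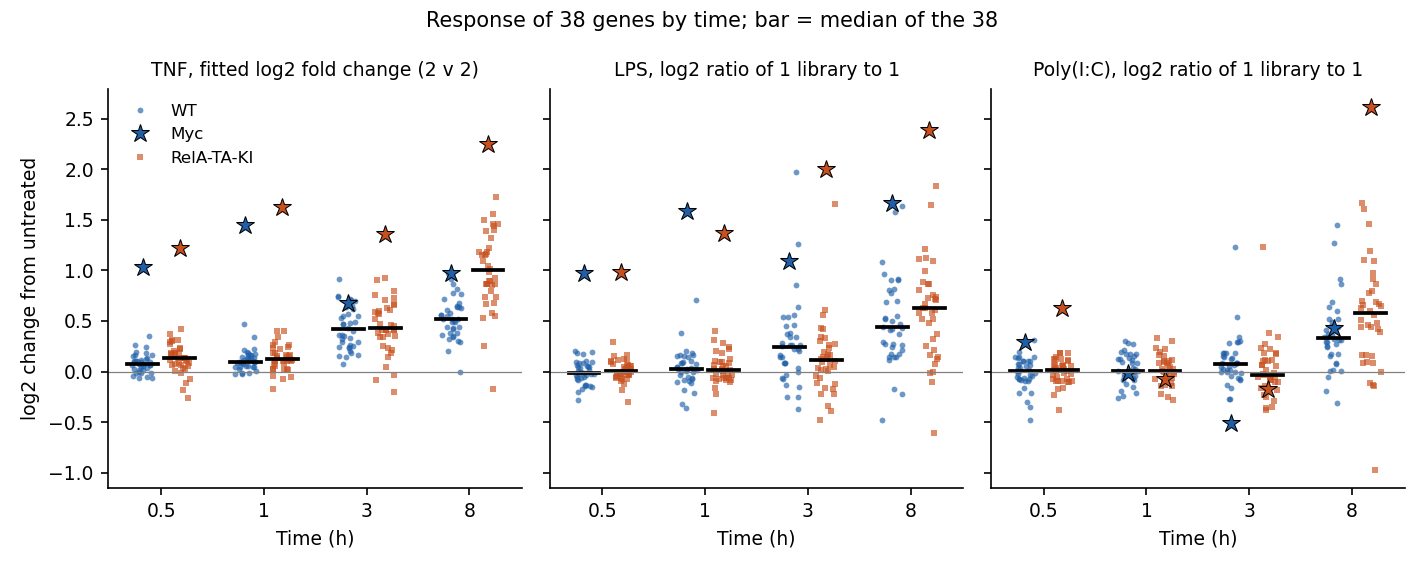
The log2 change from untreated cells (vertical axis) for each of the 38 genes at 0.5, 1, 3 and 8 h (horizontal axis), with circles for WT, squares for RelA-TA-KI, stars for Myc and black bars for the median of the 38. The TNF panel shows fitted log2 fold changes of 2 against 2 libraries and the others log2 ratios of single libraries. With TNF the medians lie between 0.08 and 0.14 at 0.5 and 1 h, at 0.42 and 0.43 at 3 h, and at 8 h stand at 0.52 in WT and 1.00 in RelA-TA-KI.

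At 8 h of TNF most of the genes were called higher in each genotype. In WT 30 of the 38 were called higher and none lower, against 12% of all genes tested called higher and 8.8% lower. In RelA-TA-KI 37 were called higher and none lower, against 21.6% and 20.5%. The median log2 fold change was 0.52 in WT and 1.00 in RelA-TA-KI, and that of all genes was -0.01 and -0.02. In WT 35 genes had both 8 h libraries above both untreated ones, and in RelA-TA-KI 37, where 28.1% and 35.7% of all genes did. Ubtf, which encodes a factor of RNA polymerase I promoters and is named here after its values were seen, was the gene not called in RelA-TA-KI. Its libraries had 138.6 and 151.6 CPM before and 120.1 and 136.7 at 8 h, so those of 8 h lay below the untreated ones. Across the 38 genes the responses of WT and RelA-TA-KI cells at 8 h, which share no library, had a correlation of 0.87 (0.85 without Myc), and across all genes tested 0.61. Genes measured in the same libraries are not independent points, so this describes the order of the genes only.

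**Figure D3:**
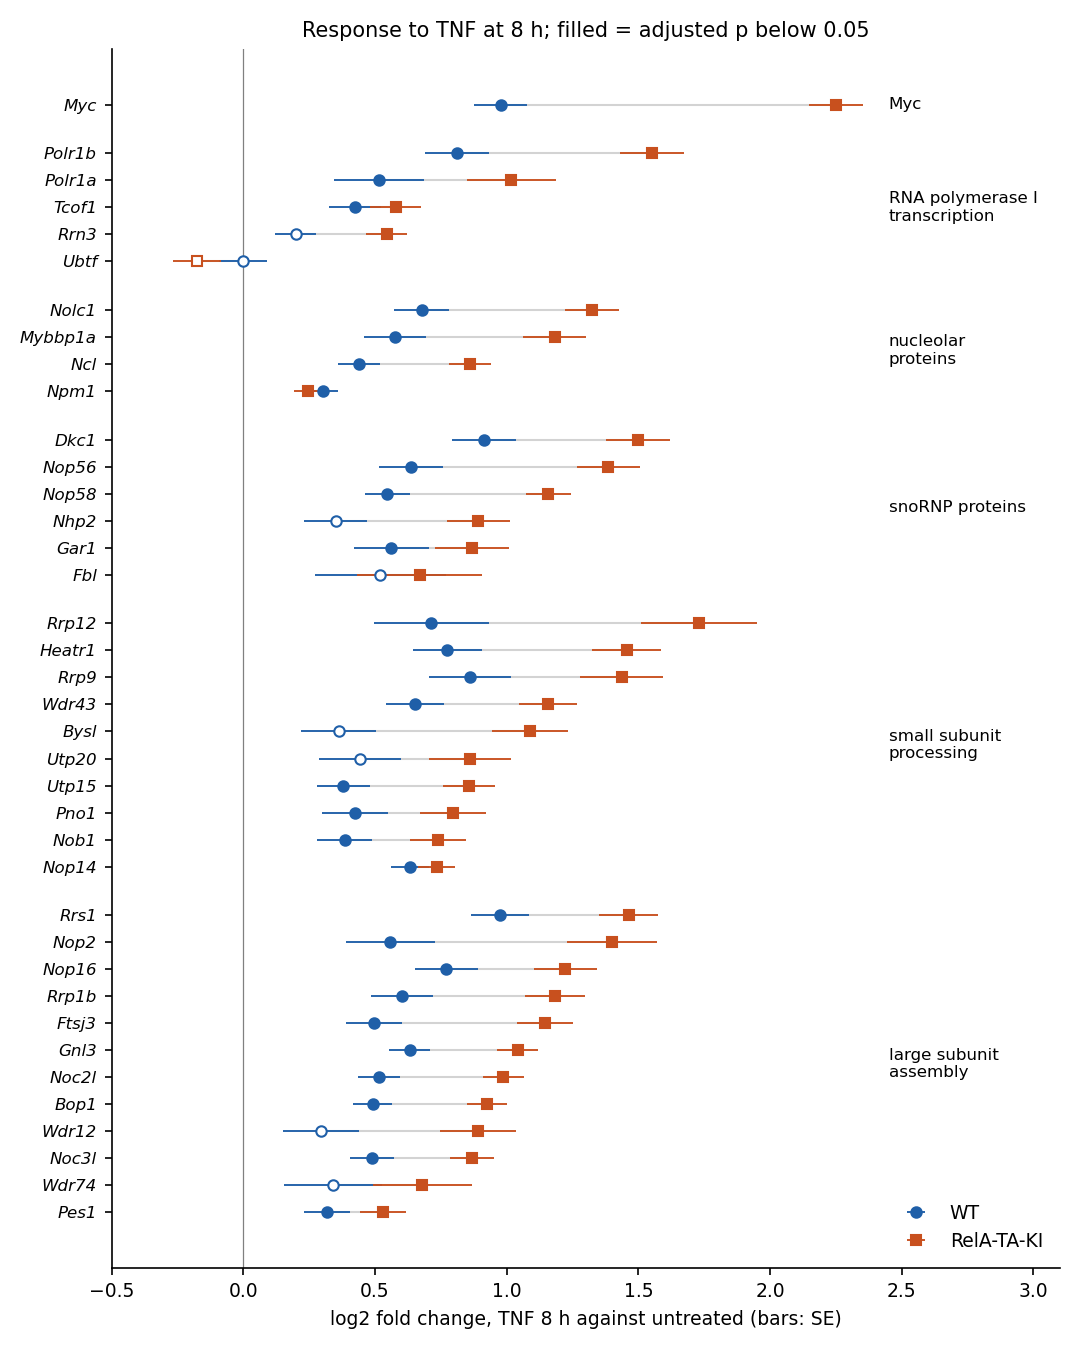
The log2 fold change at 8 h of TNF against untreated cells (horizontal axis, bars are SE, n = 2 against 2 libraries) for each gene (vertical axis), grouped by role, with circles for WT and squares for RelA-TA-KI. Filled symbols passed the test, 30 in WT and 37 in RelA-TA-KI, and the square lies to the right of the circle in 36 of the 38 genes.

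Of the 5 genes of RNA polymerase I transcription, 3 were called higher at 8 h in WT and 4 in RelA-TA-KI. Polr1b, the second largest subunit of the polymerase (chromosome 2, 129100995 to 129126594, plus strand), led them. In the WT replicates it stood at 20.0 and 19.8 CPM before treatment and at 35.6 and 34.2 at 8 h. In RelA-TA-KI it went from 20.4 and 16.6 to 51.1 and 57.2, above every WT library. The log2 fold changes were 0.81 (SE 0.12) and 1.55 (SE 0.12), and they differed by 0.74 (SE 0.17, adjusted p = 0.019, edgeR). Polr1a, the gene of the largest subunit, had 0.52 (SE 0.17) in WT and 1.02 (SE 0.17) in RelA-TA-KI. Rrn3, which encodes the factor that brings the polymerase to its promoter, was called higher at 8 h in RelA-TA-KI (0.54, SE 0.08) and had 0.20 (SE 0.08, adjusted p = 0.086) in WT.

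All 4 nucleolar proteins of wide function were called higher at 8 h in both genotypes, and Ncl, Nolc1 and Mybbp1a rose more in RelA-TA-KI. Nolc1 (chromosome 19, 46075863 to 46085528, plus strand), which encodes a phosphoprotein that binds snoRNPs, stood at 79.0 and 67.7 CPM in untreated WT and 118.7 and 115.2 at 8 h. In RelA-TA-KI it went from 72.6 and 62.9 to 161 and 178.1, so that the 8 h libraries of the genotypes did not overlap. The difference of responses was 0.65 (SE 0.15, adjusted p = 0.017). Npm1, the most abundant gene of the group, changed least: 0.30 (SE 0.06) in WT and 0.25 (SE 0.06) in RelA-TA-KI, with a difference of responses of -0.05 (SE 0.08, adjusted p = 0.74). Npm1 is known for processed pseudogenes that can share its reads, and how reads with several positions were counted is not stated, so its level is uncertain.

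Of the 6 protein genes of the snoRNPs, 4 were called higher at 8 h in WT and 6 in RelA-TA-KI. Nop56 (chromosome 2, 130274430 to 130279313, plus strand), a core protein of the box C/D particles that guide methylation of ribosomal RNA, had 45.3 and 39.1 CPM in untreated WT and 68.9 and 61.8 at 8 h. In RelA-TA-KI it had 40.5 and 35.5 before and 94.9 and 103.6 at 8 h. The rise was 0.64 (SE 0.12) in WT and 1.39 (SE 0.12) in RelA-TA-KI, a difference of 0.75 (SE 0.17, adjusted p = 0.017). Exons of Nop56 overlap annotated snoRNA genes on its own strand. Its partner Nop58 showed a difference of 0.61 (SE 0.12, adjusted p = 0.0086). Dkc1 (chromosome X, 75095854 to 75109777, plus strand), the pseudouridine synthase of the box H/ACA particles, had the largest response of the group in both genotypes. It went from 33.1 and 29.5 to 60.6 and 57.1 CPM in WT (0.91, SE 0.12) and from 28.6 and 26.9 to 73.8 and 83.1 in RelA-TA-KI (1.5, SE 0.12), and the difference of 0.59 (SE 0.17) did not pass the test (adjusted p = 0.056). Fbl, the methyltransferase of the box C/D particles, had the fewest reads of the 38 before treatment and the widest error of its group, with 0.52 (SE 0.25, adjusted p = 0.16) in WT and 0.67 (SE 0.24, adjusted p = 0.034) in RelA-TA-KI.

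Of the 10 genes of the small subunit, 8 were called higher at 8 h in WT and 10 in RelA-TA-KI. Rrp12 (chromosome 19, 41862852 to 41896153, minus strand), an export factor of pre-ribosomes, rose most in RelA-TA-KI, from 21.1 and 18.4 to 63.5 and 67.7 CPM (1.73, SE 0.22). In WT it went from 30.6 and 22.6 to 44.2 and 42.4 (0.71, SE 0.22), and the difference of 1.02 (SE 0.31) had an adjusted p of 0.064. Rrp9 (chromosome 9, 106475963 to 106485424, plus strand), a protein of the U3 particle that works on the early precursor, had the largest WT response, from 20.6 and 18.7 to 38 and 33.1 CPM (0.86, SE 0.16). Its RelA-TA-KI libraries went from 16.7 and 15.4 to 42.0 and 45.0 (1.44, SE 0.16). Bysl (chromosome 17, 47599331 to 47611492, minus strand) had a difference of responses of 0.73 (SE 0.20, adjusted p = 0.046), a call that held in 9 of 26 alternative settings. Its 8 h levels were 56.7 and 51.4 CPM in WT and 62.5 and 62.9 in RelA-TA-KI, a genotype difference of 0.21 (SE 0.14, adjusted p = 0.33), so the larger response went with the lower level before treatment. Exons of Bysl overlap those of Ccnd3 on the opposite strand over 361 bases, and the strand setting of the counting is not stated. Heatr1, a scaffold of the small subunit processome, rose by 0.78 (SE 0.13) in WT and 1.46 (SE 0.13) in RelA-TA-KI, a difference of 0.68 (SE 0.18, adjusted p = 0.04).

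Of the 12 genes of the large subunit, 10 were called higher at 8 h in WT and 12 in RelA-TA-KI. Rrs1 (chromosome 1, 9545408 to 9547455, plus strand), which helps to place the 5S ribonucleoprotein, had the largest response in both genotypes. It went from 40.2 and 34.7 to 73.5 and 73.1 CPM in WT (0.98, SE 0.11) and from 30.8 and 30.8 to 79.7 and 90.3 in RelA-TA-KI (1.46, SE 0.11), a difference of 0.49 (SE 0.16, adjusted p = 0.076). Nop2 (chromosome 6, 125131883 to 125144753, plus strand), a methyltransferase of the large ribosomal RNA, had the largest difference, 0.84 (SE 0.24, adjusted p = 0.049), a call that held in 11 of 26 alternative settings. It stood at 73.7 and 54.2 CPM in untreated WT, 98.4 and 88.7 in WT at 8 h, 52.6 and 43.0 in untreated RelA-TA-KI, and 126 and 126.2 in RelA-TA-KI at 8 h. The RelA-TA-KI libraries were thus the lowest before treatment and the highest after it. Gnl3, Noc2l, Ftsj3, Bop1 and Rrp1b also passed this test, with differences of 0.41 to 0.65. Exons of Noc2l overlap those of Samd11 on the opposite strand over 598 bases.

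**Figure D4:**
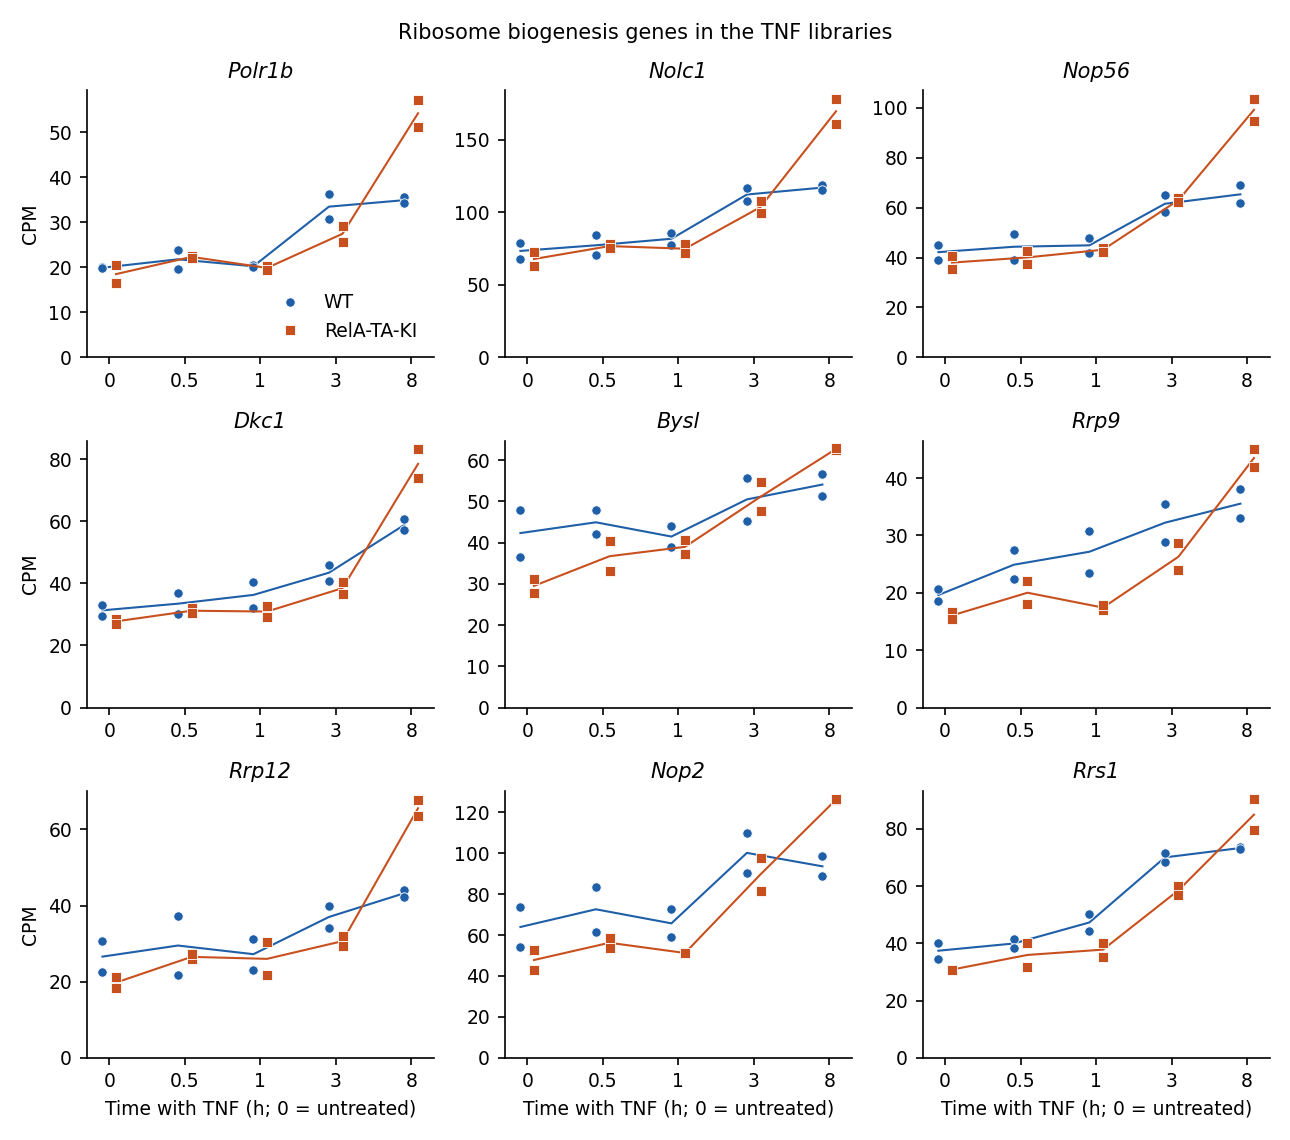
Levels in CPM (vertical axes, starting at 0) of 9 genes in the 20 TNF libraries against time in h (horizontal axes, evenly spaced points, 0 is untreated), with 1 point per library, circles for WT, squares for RelA-TA-KI and lines through group means. Between 3 and 8 h the RelA-TA-KI lines cross those of WT or pull away from them, as for Nop2, at 126 and 126.2 CPM against 98.4 and 88.7.

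In all, the response to TNF at 8 h was larger in RelA-TA-KI by the test of the difference in 15 of the 38 genes and smaller in none, where 3.45% of all genes were called larger and 3.42% smaller. In this test 27 of the 38 had an unadjusted p below 0.05, as had at least 6.87% of all genes. The difference was positive in 36 of the 38, as in 49% of all genes, with a median of 0.48 (all genes -0.01). It was positive in 36 genes within replicate 1 and in 36 within replicate 2, with medians of 0.50 and 0.47. The number of calls rested on few libraries, however. It was 1 without untreated WT replicate 1, and 2 without untreated RelA-TA-KI replicate 2, without RelA-TA-KI 8 h replicate 2 or without WT 8 h replicate 2. It was 6, 7 and 9 without untreated RelA-TA-KI replicate 1, WT 8 h replicate 1 and RelA-TA-KI 8 h replicate 1. It was also 6 when counts were scaled to library totals, and 29 with the replicate number as a block. Set side by side at 8 h, RelA-TA-KI cells were higher than WT cells in 16 of the 38 genes and lower in none, against 7.75% and 8.11% of all genes, and in 35 genes the libraries did not overlap, against 27.5% of all genes. The number called was 27 with the block, and 8 without WT 8 h replicate 1, WT 8 h replicate 2 or RelA-TA-KI 8 h replicate 2. Both comparisons use the same 8 h libraries, so they are not separate evidence. The median genotype difference of the 38 genes was -0.15 in untreated cells and 0.32 at 8 h. The larger response thus held both a lower level before treatment and a higher one at 8 h in RelA-TA-KI. Of the 31 genes with a promoter window, 2 of the 7 with an E-box and 11 of the 24 without one passed the test of the difference of responses, with medians of 0.42 and 0.52.

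With LPS the course of Myc in WT again went up to 1 h, down at 3 h and up at 8 h, and with Poly(I:C) Myc was highest at 8 h in both genotypes. With LPS it went in WT from 19.8 CPM before treatment to 39.2, 60.1, 42.6 and 63.5 at 0.5, 1, 3 and 8 h, and in RelA-TA-KI from 23.9 to 47.6, 62.1, 96.4 and 126.5. The libraries of the genotypes were thus close up to 1 h and apart at 3 and 8 h. With Poly(I:C) it went in WT from 19.8 to 24.3, 19.7, 13.9 and 26.9, and in RelA-TA-KI from 23.9 to 37.1, 22.7, 21.1 and 147.6. At 8 h of Poly(I:C) the log2 ratio to untreated cells was 0.43 in WT and 2.61 in RelA-TA-KI, 1 library each, which has no replicate check. In the fit over both genotypes, whose error is the spread of the genotype difference over conditions, Myc was called higher with LPS by 1.57 at 3 h (SE 0.44, adjusted p = 0.013) and by 2.04 at 8 h, where the SE was 0.45 and the adjusted p 0.0018. With Poly(I:C) it was called higher at 8 h (1.79, SE 0.45, adjusted p = 0.006). The 8 h calls held when counts were scaled to library totals (1.33 with LPS and 1.22 with Poly(I:C)). Over the 9 conditions the RelA-TA-KI level of Myc was the higher one, by 0.74 on the log2 scale (SE 0.21, adjusted p = 0.034). Every WT library of this set carried both Xist and Ddx3y, whereas the RelA-TA-KI libraries had Ddx3y and little Xist. Genotype and this difference in sex pattern cannot be told apart here.

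Of the 38 genes, 0 were called at 0.5 and 1 h of LPS or Poly(I:C) with edgeR. Of all genes 0.149% and 1.05% were called with LPS and 0.00784% and 0% with Poly(I:C), and 0 to 3 of the 38 had an unadjusted p below 0.05. DESeq2 called 1 gene at 1 h of LPS and 0 at the other 3 early points. In this fit LPS gave Myc 0.99 at 0.5 h and 1.51 at 1 h (SE 0.44 each, adjusted p = 1 and 0.21). At 3 h of LPS 9 of 38 were called higher and 0 lower, against 22.8% and 23.3% of all genes, with a median of 0.17 (all genes -0.02). At 8 h of LPS 27 were called higher and 1 lower, against 30.9% and 33.2% of all genes, with a median of 0.54 (all genes -0.05). With Poly(I:C) 1 gene was called higher at 3 h and 0 lower, against 11% and 7.87% of all genes, and 24 higher at 8 h, with 0 lower, against 25.2% and 26.1%, with a median of 0.46 at 8 h (all genes -0.04). These directions are relative to the bulk of genes. Without TMM factors, scaled to library totals, the median of all genes moved to -0.50 at 3 h and -0.76 at 8 h of LPS and to -0.26 and -0.53 with Poly(I:C). The calls then read 2 higher and 20 lower at 3 h of LPS, 7 and 13 at 8 h of LPS, 1 and 5 at 3 h of Poly(I:C), and 8 and 6 at 8 h of Poly(I:C). With TNF at 8 h the same change left the median of all genes 0.16 below 0 in RelA-TA-KI. It left 29 genes higher at 8 h in WT and 35 higher with 1 lower in RelA-TA-KI.

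Single genes departed from the common course, and those of this paragraph other than Myc, Polr1b, Dkc1, Rrp9 and Rrs1 were chosen after their values were seen. Wdr43 (chromosome 17, 71616215 to 71659031, plus strand), a protein of the small subunit processome, was the gene called higher at 3 h of Poly(I:C), by 1.23 (SE 0.13, adjusted p = 3.6e-05). In WT it stood at 51.5 CPM untreated, 203 at 3 h and 153.6 at 8 h of LPS, and 121.2 and 141.2 with Poly(I:C). The RelA-TA-KI levels were 56.8 untreated, 179.8 and 203.3 with LPS, and 133.5 and 180.2 with Poly(I:C), so all 8 late libraries lay far above both untreated ones. With LPS its log2 change was 1.83 at 3 h and 1.72 at 8 h (SE 0.13 each). With TNF it rose at 8 h by 0.65 in WT and 1.16 in RelA-TA-KI (SE 0.11 each). Dkc1, the leading snoRNP gene with TNF, had -0.03 with LPS and 0.03 with Poly(I:C) at 8 h (SE 0.15 each), with adjusted p = 0.87 and 0.86. Its 18 libraries of that table all lay between 17.6 and 27.9 CPM. Polr1b had 0.39 (SE 0.15, adjusted p = 0.034) with LPS at 8 h, a sign that turned under scaling to library totals, and 0.16 (SE 0.15, adjusted p = 0.37) with Poly(I:C). Wdr12, a 60S assembly factor of the Pes1 and Bop1 complex, was called lower at 8 h of LPS (-0.55, SE 0.21, adjusted p = 0.036). It stood at 13.3 and 13.5 CPM there against 18.6 and 20.6 untreated, while Pes1 had 0.15 (SE 0.09, adjusted p = 0.17). Rrp9 and Rrs1 rose with LPS (1.41, SE 0.19, and 1.28, SE 0.21) and with Poly(I:C) (1.46, SE 0.19, and 1.03, SE 0.21) at 8 h, the first of them from 9.8 CPM in WT to 21.1 and 24.0. Across the 38 genes the 8 h responses to TNF and to LPS or Poly(I:C), which share no library, had correlations of 0.58 to 0.68, and 0.51 to 0.60 without Myc. Across all genes these correlations were 0.60 to 0.68, so those of the 38 genes were no higher.

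**Figure D5:**
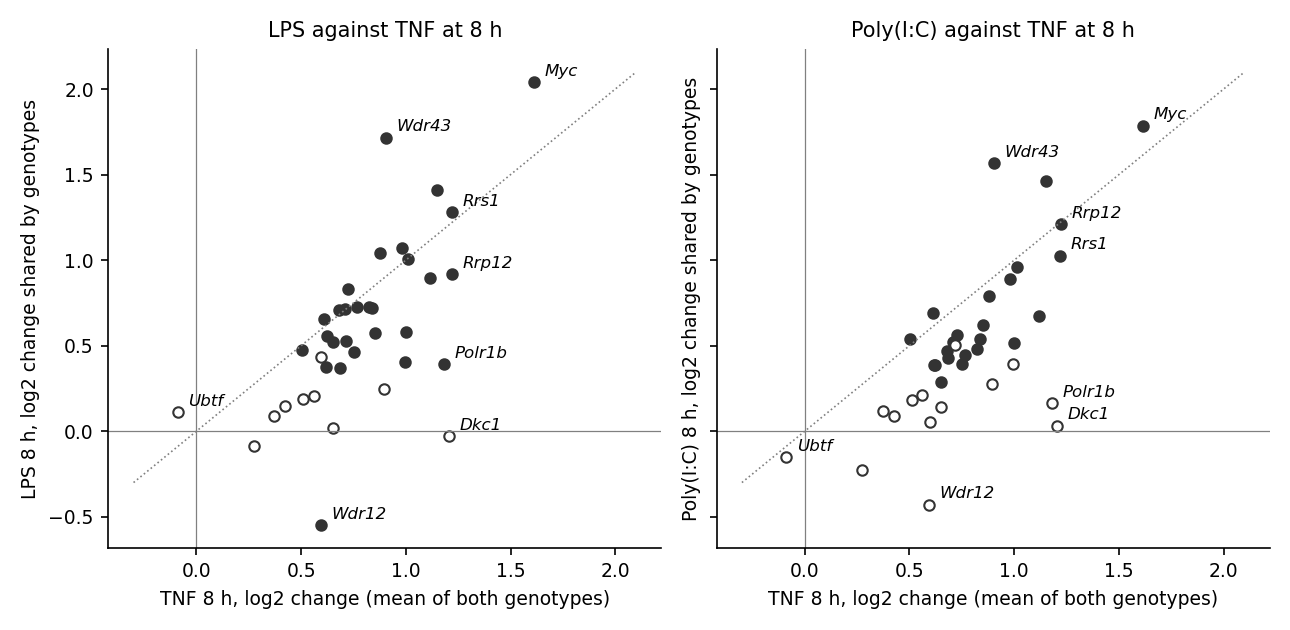
The log2 change at 8 h of LPS (left) or Poly(I:C) (right), fitted over both genotypes (vertical axes), against the mean of the WT and RelA-TA-KI log2 fold changes at 8 h of TNF (horizontal axes), with 1 point per gene. Filled points passed the LPS or Poly(I:C) test and the dotted line marks equal changes. Wdr43, at 1.72 and 1.57, lies above the line in both panels, and Dkc1, at -0.03 and 0.03, far below it.

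Between the genotypes over the 9 LPS and Poly(I:C) conditions, Myc, Gnl3 (0.24, SE 0.06, adjusted p = 0.02) and Pno1 (0.22, SE 0.06, adjusted p = 0.027) were called higher in RelA-TA-KI, and Tcof1, a cofactor of RNA polymerase I, lower (-0.17, SE 0.04, adjusted p = 0.015). These are 3 and 1 of 38 genes, against 7.66% and 8.21% of all genes, so the called shares were close to the background. Each genotype kept its own sex pattern in all 9 libraries, so genotype and that pattern cannot be told apart in this comparison. The difference was positive in 32 of the 38, against 6154 of the 12752 genes tested, with a median of 0.11. An unadjusted p below 0.05 (edgeR) was met by 19 of the 38 and by at least 15.9% of all genes. DESeq2 called 7, and 7 were called without the 3 h LPS libraries. In single libraries at 8 h the log2 ratio was larger in RelA-TA-KI than in WT in 25 of the 38 genes with LPS and in 30 with Poly(I:C), against 50.8% and 49.2% of all genes, with median differences of 0.14 and 0.21. At 3 h it was larger in 8 genes with LPS and 13 with Poly(I:C), against 49.6% and 49.9% of all genes, with medians of -0.16 and -0.10.

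Genes of the neighbouring pathways were counted in the same fits, beside the shares of all genes at 8 h of TNF. Of all genes 12% were called higher and 8.8% lower in WT, and 21.6% and 20.5% in RelA-TA-KI. By the difference of responses 3.45% of all genes were called larger in RelA-TA-KI and 3.42% smaller. Of 81 further ribosome assembly factors, 50 rose in WT and 72 in RelA-TA-KI at 8 h of TNF (0 and 1 fell), with medians of 0.39 and 0.71. By the difference of responses 13 of them were larger in RelA-TA-KI, led by Shq1 (1.08, SE 0.25), Urb2 (0.73, SE 0.12) and Ddx21 (0.67, SE 0.16). Rcl1, an endonuclease-like factor of the small subunit, went the other way at 3 h, with a difference of -0.68 (SE 0.15, adjusted p = 0.042). Of 23 further genes of RNA polymerases I and III, 3 rose in WT, a share near that of all genes, and 12 in RelA-TA-KI, and 0 passed the test of the difference (edgeR), with 5 at an unadjusted p below 0.05. Ribosomal protein genes hardly moved: 1 of 71 rose in WT and 5 in RelA-TA-KI, with medians of 0.05 and 0.11, and reads of these genes may be shared with their many pseudogenes. Of 29 further known Myc targets, 13 rose in WT and 22 in RelA-TA-KI, and 6 had a larger response in RelA-TA-KI, led by Hk2, a hexokinase of glycolysis (1.23, SE 0.27), Odc1, the first enzyme of polyamine synthesis (0.82, SE 0.17), and Srm, the spermidine synthase (0.79, SE 0.16).

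In the Myc network 11 of 12 genes could be tested with TNF, and at 8 h 1 rose and 4 fell in WT, while 3 rose and 4 fell in RelA-TA-KI. Mxd4, which competes with Myc for Max, fell in both, by 0.73 on the log2 scale in WT (SE 0.09) and 1.34 in RelA-TA-KI (SE 0.09), a difference of -0.61 (SE 0.12, adjusted p = 0.0095). Mycl, a relative of Myc, rose by 2.44 (SE 0.33) in WT and by 1.19 (SE 0.35) in RelA-TA-KI, responses whose difference did not pass the test, and its level at 8 h was lower in RelA-TA-KI (log2 difference -1.30, SE 0.30, adjusted p = 0.0092). With LPS at 8 h Mxd1 rose (4.33, SE 0.40) and Mxd4 fell (-2.54, SE 0.28), and with Poly(I:C) Mxd1 rose (3.75, SE 0.39) and Mxd4 fell (-1.70, SE 0.27). Over the 10 TNF groups the genes whose mean log2 CPM followed that of Myc most closely were Errfi1, Hsp90aa1, Hspa5, Cpeb4 and Has2, with Pearson's r from 0.94 to 0.96. The 37 other genes had r from -0.48 (Ubtf) to 0.77 (Rrn3) with Myc.

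Markers of other cells and of division moved beside these results. Summed macrophage markers stood at 1276 and 2057 CPM in the 8 h WT libraries and 2042 and 3878 in those of RelA-TA-KI, against 1089 and 1714, and 1448 and 2453, before treatment. Of the 13 markers 1 was called higher in the RelA-TA-KI response, against 21.6% of all genes. Their median difference of responses was 0.45 with 0 called (edgeR), where 3.45% of all genes were called larger and 3.42% smaller. None of the 13 was at 0 in every library. Muscle markers summed to 148 and 96.0 CPM in WT and 195 and 168 in RelA-TA-KI at 8 h. Epithelial markers summed to 46.9 and 39.8 and to 86.1 and 85.3, and endothelial markers to 41.2 and 27.8 and to 59.8 and 55.2. Before treatment the muscle sums were 155 and 94.9 in WT and 153 and 88.8 in RelA-TA-KI. The epithelial ones were then 145 and 32.2 in WT and 38.2 and 46.8 in RelA-TA-KI. The endothelial ones were 70.9 and 42.3 in WT and 59.5 and 41.4 in RelA-TA-KI. No gene of these 3 lists passed the edgeR test of the difference of responses, with 2 epithelial ones at an unadjusted p below 0.05. In the 8 h Poly(I:C) library of RelA-TA-KI, where Myc was at 147.6 CPM, endothelial markers summed to 765 CPM, against 13.0 in untreated RelA-TA-KI and 141 in WT at 8 h. Of these 5 markers only Kdr passed the filter, and it rose with Poly(I:C) at 8 h (5.33, SE 0.59, adjusted p = 2.3e-05). Of 16 proliferation markers 0 rose at 8 h of TNF in either genotype, 5 fell in WT and 3 in RelA-TA-KI, and 9 were higher in RelA-TA-KI at 8 h. Of all genes 12% rose and 8.8% fell in WT, and 21.6% rose and 20.5% fell in RelA-TA-KI. Between the genotypes at 8 h, 7.75% of all genes were higher in RelA-TA-KI. The 16 markers summed to 813 and 862 CPM at 8 h in WT and 1026 and 1126 in RelA-TA-KI. Before treatment they summed to 992 and 1063 in WT and 1084 and 1252 in RelA-TA-KI. The RelA-TA-KI sums were thus the higher ones before treatment too, and within each replicate number the sums of both genotypes were lower at 8 h. The part of other cell types or of cell division in the larger RelA-TA-KI response of the ribosome genes was not tested.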

How the data were processed

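Poly(A) RNA of 38 libraries (20 for TNF, 18 for LPS and Poly(I:C)) was made into stranded libraries and sequenced single-end, per the labels' protocols. Reads were trimmed with cutadapt 1.9.1, aligned with STAR to mm10 and counted with featureCounts 1.4.6, and the notes also name DESeq2, per the submitters' processing notes. The authors deposited counts, whole numbers of reads for each gene that they had not normalized, beside the exon length. How strand and reads with several positions were handled is not given in the sources used here.

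Symbols were paired with the identifiers through the reference gene table (45143 of 45706 matched). Counts were filtered with filterByExpr, scaled with TMM factors and tested with edgeR 4.0.16 in R 4.3.3 (quasi-likelihood F test, Benjamini-Hochberg adjustment over all genes, threshold 0.05). The TNF fit had 10 groups, 13843 genes and 10 residual degrees of freedom. The LPS and Poly(I:C) fit had condition and genotype as terms, 12752 genes and 8 residual degrees of freedom, and treats the genotypes as the repeats of a condition. Log2 ratios of single libraries used a prior count of 2 and have no test. The biological coefficient of variation was 10.2% and 12.7%, and replicate TNF libraries had correlations of 0.982 to 0.989. The fits were also run on simulated counts with the same spread for every gene and as many raised as lowered genes. These held no difference in replicate or sex, so they do not show how such differences act on the calls. Difference of responses means the RelA-TA-KI log2 fold change minus that of WT. Within-replicate values compare libraries of the same replicate number and have no test. Shares of all genes at an unadjusted p below 0.05 are lower bounds, taken from the adjusted calls, or are not given.

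The genes, the lists and the tests were chosen with earlier results of these data known. The genes described in full are Myc, for each role the gene called with the largest response in each genotype and the largest difference of responses at 8 h, and the largest rise and fall at 3 h. From each other list up to 3 genes called in each direction were eligible. Myc-like genes had a mean of at least 10 CPM and the highest Pearson's r over the 10 group means. All other genes were named after their values were seen. Alternatives were a replicate block, DESeq2 size factors, library totals, no filter, DESeq2 1.42.0, fits of only the groups compared, and leaving out each library.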

Additional observations from a re-analysis of the deposited data

Results flagged for a closer look

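These genes met a test of the difference between the genotypes' responses to TNF (edgeR quasi-likelihood test with Benjamini-Hochberg adjustment), each with the larger rise in RelA-TA-KI. As given above, many of these calls were lost in other settings. Among the genes described in full, only the 8 h call of Myc held in every setting. Over the 6 settings that kept all libraries, the number called was 0 to 2 at 3 h and 6 to 29 at 8 h. At 3 h the difference was 0.68 on the log2 scale for Myc. At 8 h it was 1.27 for Myc. In RNA polymerase I transcription it was 0.74 for Polr1b. Among the nucleolar proteins it was 0.42 for Ncl, 0.65 for Nolc1 and 0.61 for Mybbp1a, and among the snoRNP genes 0.75 for Nop56 and 0.61 for Nop58. For the small subunit it was 0.68 for Heatr1 and 0.73 for Bysl. For the large subunit it was 0.44 for Bop1, 0.84 for Nop2, 0.41 for Gnl3, 0.47 for Noc2l, 0.65 for Ftsj3 and 0.58 for Rrp1b.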

How the results depend on the processing

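Of the alternative values for single named genes 1326 kept their direction and side of the threshold, 81 lost the call and 2 turned: at 8 h of LPS, scaled to library totals, Polr1b had -0.31 and Nolc1 -0.13. Of the counts of genes called, 481 stayed within 1.5 times and 62 moved. Labels do not say what the replicate numbers mark. Replicate 2 had a higher macrophage marker sum than replicate 1 in every TNF group, and in WT the sex pattern went with the replicate number at every time. The main TNF fit had no block and so did not use this pairing. The correlation of replicate differences between groups was 0.00558 to 0.529 over 45 pairs of groups, and 0.164 to 0.529 over the 13 pairs that a comparison uses. With the replicate block the TNF counts were 5 for RelA-TA-KI at 0.5 h, 3 for WT and 8 for RelA-TA-KI at 1 h. Between genotypes the block gave 5 untreated (1 higher, 4 lower), then 1 with TNF for 1 h, 2 for 3 h and 27 for 8 h, and for the difference of responses 2 at 3 h and 29 at 8 h. Without the filter on low counts the counts were 4 for RelA-TA-KI at 0.5 h, 2 for WT and 3 for RelA-TA-KI at 1 h, and between genotypes 2 untreated, 2 at 1 h and 2 at 3 h. Fits of only the groups compared gave 9 for WT at 3 h, 9 between genotypes at 8 h, and 0 at 3 h and 6 at 8 h for the difference of responses. Scaled to library totals the counts were 6 for the difference of responses at 8 h, 22 for LPS at 3 h, 6 for Poly(I:C) at 3 h, 14 for Poly(I:C) at 8 h and 20 for LPS at 8 h, and the median of all genes moved to -0.16 for RelA-TA-KI at 8 h of TNF. DESeq2 gave 7 between genotypes with LPS and Poly(I:C) and 1 for LPS at 1 h. The cause of these moves was not tested. Fits of only the groups compared also hold fewer samples.

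Leaving out 1 library gave 12 to 25 calls for WT and 11 to 27 for RelA-TA-KI at 3 h, 21 to 32 for WT and 35 to 37 for RelA-TA-KI at 8 h, 0 to 1 between genotypes at 3 h and 8 to 17 at 8 h. For the difference of responses it gave 0 to 1 at 3 h and 1 to 17 at 8 h. Leaving out 1 condition gave 3 to 7 between genotypes with LPS and Poly(I:C), 0 to 1 at 1 h, 7 to 12 at 3 h and 25 to 28 at 8 h of LPS, and 21 to 25 at 8 h of Poly(I:C). All 38 genes passed the filter on low counts, and depth limits Fbl most, with the fewest reads before treatment.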
